A study of Mus musculus with 2 samples.

Results

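The Peg10-Sgce domain lies on proximal mouse chromosome 6. Its members here were all entries of the authors' catalog of known imprinted genes whose start falls between 3.0 and 7.0 Mb on chromosome 6 of build mm9. The rule gave 9 of the 128 catalog entries, in order along the chromosome Calcr, Tfpi2, Sgce, Peg10, Neurabin, Pon3, Pon2, Asb4 and Dlx5. The catalog names the paternal allele as the expressed one for 2 of them, Sgce and Peg10, and the maternal allele for 6. It gives no allele for Tfpi2.

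The study sequenced polyA-selected RNA of whole brain at E17.5 from F1 hybrids of 2 mouse strains. The BxC library had a C57BL/6J mother and a CastEi/J father, and the CxB library the reverse. Only 1 library of each cross was analysed here, although the study's methods name further BxC embryos, so no difference below has a replicate check and no test was made. Intervals given are exact at 95% and cover counting error only, while reads multiplied by PCR are not independent molecules. The alignments list no bases, so the reads could not be assigned to the maternal or the paternal allele, and every value is the sum of both.

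In all, 128944754 reads were aligned in BxC and 109719746 in CxB. The libraries also differed in sex: Xist, the RNA of the inactive X chromosome, had 142957 reads in BxC and 38 in CxB, and chromosome Y had 1852 and 18212. Cross and sex therefore cannot be told apart. Both libraries read as brain. The neuronal markers found summed to 1402 RPKM (reads per kilobase of exon, scaled to 1000000 reads in the library) in BxC and 1287 in CxB, while 3 of 4 placental markers were at 0 in both. Red blood cell markers summed to 279 and 227 RPKM. Choroid plexus markers summed to 258 and 285, of which Ttr alone gave 253 and 281. The part of these cells in the results was not tested. In such bulk samples, fewer cells of a type and less RNA per cell cannot be told apart.

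Genomic imprinting is the expression of a gene from 1 parental copy. It is set by DNA methylation that is laid down in the germ line and kept in the embryo. In this domain the methylated region lies at the shared start of Peg10 and Sgce, which are transcribed away from each other from the unmethylated paternal copy. Several neighbours have been described as maternally biased in some tissues only. The annotated starts of Sgce and Peg10 were separated by 101 bases, at chr6:4697205-4697305 in mm9, and this gap was overlapped by 2 reads in BxC and 3 in CxB.

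A few short sequences carry what the reads could show of the members' transcripts. They were read from the mm9 genome and are printed 5′ to 3′ on the strand of the gene. The first is the site in Peg10 where ribosomes slip back by 1 base, which joins the gag-like and the pol-like reading frame. The capitals mark the slippery heptamer, which occurred once in the first reading frame, at chr6:4705327-4705333, and began on the last base of a codon.
Peg10 frameshift heptamer, chr6:4705307-4705369, plus strand: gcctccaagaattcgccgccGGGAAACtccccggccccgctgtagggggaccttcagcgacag

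The other sequences are alternative coding exons that junction reads both joined and skipped in at least 1 library, with the exon in capitals and its intron flanks in lower case. Each exon is a multiple of 3 bases long and keeps the reading frame whether joined or skipped.
Sgce 27-base exon, chr6:4640449-4640515, minus strand: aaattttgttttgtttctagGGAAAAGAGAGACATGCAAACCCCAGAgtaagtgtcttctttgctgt
Calcr 111-base exon, chr6:3657479-3657609, minus strand: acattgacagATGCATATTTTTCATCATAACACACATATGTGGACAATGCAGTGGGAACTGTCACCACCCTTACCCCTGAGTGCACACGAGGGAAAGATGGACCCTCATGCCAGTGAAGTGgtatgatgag
Ppp1r9a 24-base exon, chr6:5106984-5107047, plus strand: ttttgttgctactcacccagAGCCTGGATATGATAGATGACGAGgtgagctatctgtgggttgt

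Of the 9 entries, 8 had at least 10 reads over their exons in each library and 7 had at least 100. Levels differed widely among the entries. Sgce stood at 29.7 RPKM in BxC and 25.7 in CxB. Peg10, Dlx5 and Neurabin lay close together, at mean levels of 12.3, 11.7 and 11.6 RPKM. Pon2, Calcr and Asb4 followed at 2.60, 1.60 and 1.26, and Pon3 at 0.276. Tfpi2 was lowest, at a mean of 0.00618. The counting intervals of Dlx5 and Neurabin overlapped in both libraries and those of Peg10 and Dlx5 in BxC only. All other neighbours in the order had intervals apart in both libraries.

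**Figure D1:**
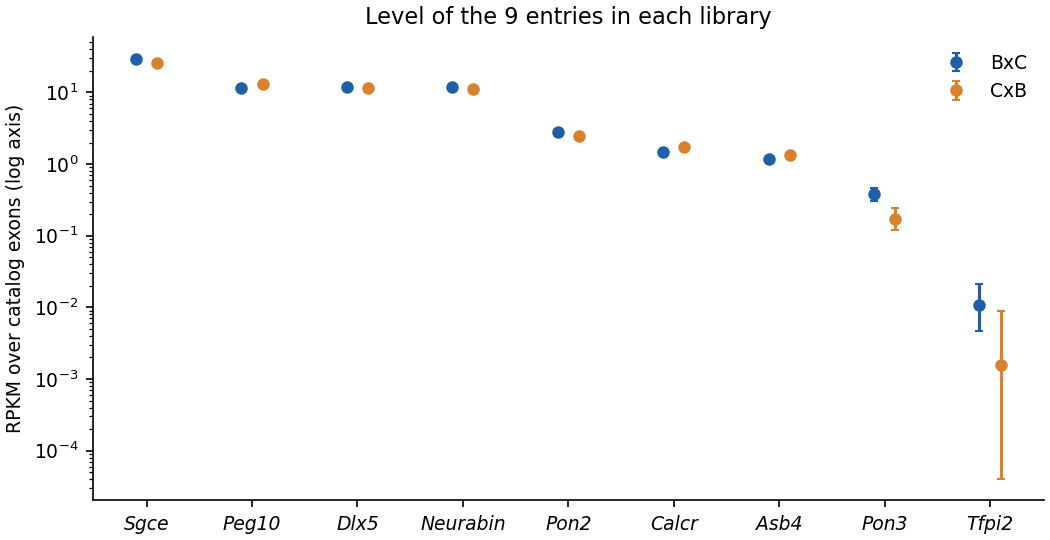
Level of each of the 9 entries in RPKM over the catalog exons (log axis), with 1 point for each library and bars for the exact 95% counting interval, which is smaller than the point for most entries. Sgce is highest at 29.7 and 25.7 RPKM, and Tfpi2 lowest with 8 reads in BxC and 1 in CxB.

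Among all 128 catalog entries Sgce ranked 26 by mean level, Peg10 36, Dlx5 37 and Neurabin 38. Measured over the annotated exons in place of the catalog exons, Sgce still led with a mean of 14.6 RPKM and lay at percentile 86.3 of all protein-coding genes, but Dlx5 passed Peg10, and Pon2 fell behind Calcr and Asb4. The level of Sgce thus rests on the set of exons used. Counting identical reads once gave 17.3 per kilobase, scaled to the totals of distinct lines and so not comparable with RPKM. On that scale Peg10 had 15.5, Pon2 4.42, Calcr 2.55, Asb4 2.52 and Pon3 0.666. The order was the same, and the lead of Sgce over Peg10 was smaller. Over the annotated exons Pon2 stood at 1.05.

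Sgce encodes epsilon-sarcoglycan, a single-pass membrane glycoprotein, and loss of its paternal copy in humans causes myoclonus-dystonia. It lies on the minus strand with 11 catalog exons. BxC had 6082 reads over them and CxB 4478. The exons were read very unevenly. Exon 1, of 121 bases, had a mean depth of 572 reads in BxC and 439 in CxB, against a median over the 11 exons of 94.3 and 74.4. That is 6.07 and 5.90 times the median, and reads touching exon 1 made up 47.6% and 48.8% of all reads over the exons. The same exon was deepest in both libraries and exon 6 was shallowest, at 29.9 and 20.2. Over exons 2 to 11 alone the level was 17.4 RPKM in BxC and 14.5 in CxB. By reads that is still above every other entry in both libraries. The level of exons 2 to 11 by distinct lines was not measured, so this order is known by reads only.

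Peg10 came from a retrotransposon and is needed for the placenta. It lies on the plus strand and had 9816 reads over its exons in BxC and 9642 in CxB. The short exon 1, which holds no reading frame, had a mean depth of 22.3 in BxC and 27.3 in CxB. The first reading frame up to the heptamer had 57.2 and 52.9. The stretch from the heptamer to the end of the second frame, chr6:4705334-4707240, was 1.56 and 1.55 times as deep, with 89.5 and 81.9 reads per base. Past the second frame the depth fell to 33.8 and 37.3. The profile of depth along Peg10 therefore had its peak in the pol-like frame in both libraries. The heptamer itself was spanned by 22 reads in BxC and 14 in CxB. RNA reads of this kind do not show how often the frameshift occurs in translation.

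Few of the reads of Peg10 lay in its intron. Its only intron is annotated from exon 1 to exon 2 and was crossed by 16 junction reads in BxC and 15 in CxB. Of all reads within the gene, 99.4% (99.3% to 99.6%) lay in exons in BxC and 99.5% (99.3% to 99.6%) in CxB. In Sgce the share was lower. There 58.9% (57.9% to 59.8%) of its reads lay in annotated exons in BxC and 60.0% (58.9% to 61.1%) in CxB, and by distinct lines 32.4% and 33.3%. The introns of Sgce held 4367 reads in BxC and 3046 in CxB, and 1 intronic bin of 1 kb at chr6:4666001-4667000 held 543 and 504 of them. This share depends on the length of the introns. Per kilobase, the exons of Sgce were 32.4 and 34.0 times as deep as its introns, and those of Peg10 169 and 197 times.

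**Figure D2:**
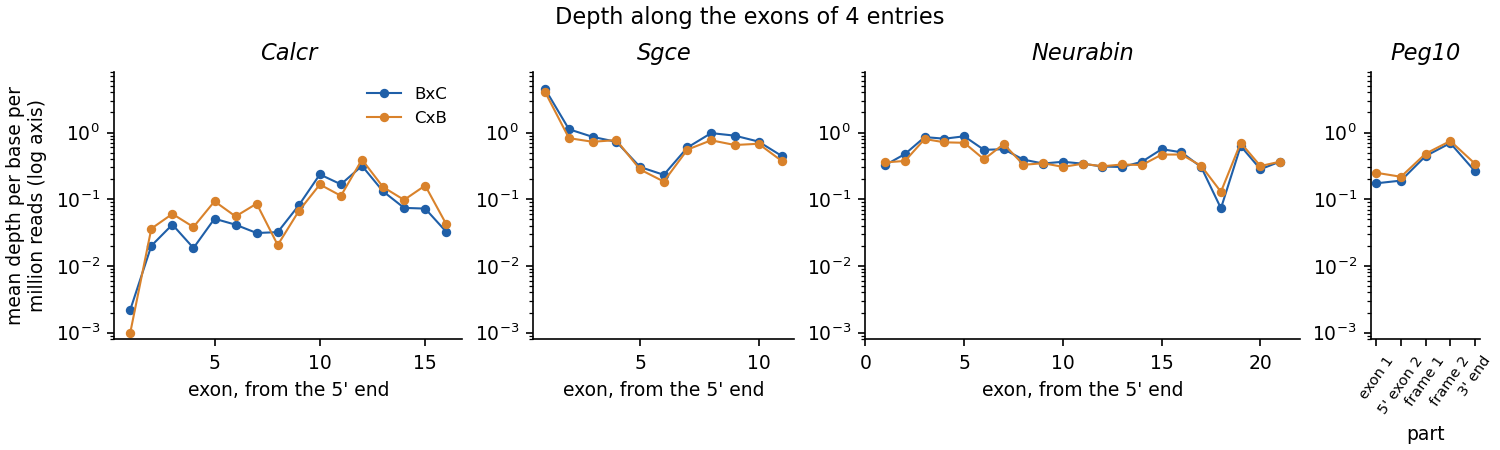
Mean read depth per base, scaled to 1000000 reads in the library (log axis), along the exons of Calcr, Sgce and Neurabin in 5′ to 3′ order and along 5 parts of Peg10; 1 line for each library, and a depth of 0 is drawn at the lower edge. Exon 1 of Sgce is the deepest point of the 4 panels, the median depth of Calcr is higher over exons 9 to 16 than over exons 1 to 8 although its exon 16 is shallower than exons 3, 5 and 6, and block 18 of Neurabin is low in both libraries.

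Neurabin is the catalog's name for Ppp1r9a, a scaffold of dendritic spines that binds actin filaments and protein phosphatase 1. It had the most reads of the 9 entries, 14710 in BxC and 11849 in CxB, over 9540 bases in 21 blocks. Its depth was even in comparison with Sgce, with a median of 47.4 and 39.1 reads per base over the blocks. All 15 of its catalog introns had junction reads in both libraries. Block 18, a stretch of 64 bases within the long last exon, stood out with 9.42 and 14.2, and none of the 36-base windows inside it is found only once in the mm9 genome. Over all its annotated exons 99.6% of the windows of Ppp1r9a are found once, and the share was 97.5% for Peg10, 99.8% for Sgce and 90.8% for Pon2.

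Calcr encodes the calcitonin receptor, which in the brain also forms receptors for amylin. BxC had 725 reads over its 16 exons and CxB 729. Its depth was lowest at the 5′ end, where exon 1 had 0.284 reads per base in BxC and 0 in CxB. The median depth was 4.08 and 5.13 over exons 1 to 8 and 13.7 and 14.5 over exons 9 to 16. Exon 12 was deepest in both libraries, at 40.8 and 43.0. The microRNA genes Mir489 and Mir653, which lie in a Calcr intron, had 0 reads in either library, in RNA that was selected for polyA and not by size.

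Tfpi2, an inhibitor of serine proteases of the extracellular matrix, is given in the catalog as a span without exons, on the plus strand, while the annotation puts it on the minus strand. Over this span of 5.76 kb BxC had 8 reads and CxB 1. Over the annotated exons the numbers were 7 and 0, where a count of 0 allows up to 0.0273 RPM (reads per 1000000 reads in the library). None of its 4 annotated introns was crossed. Tfpi2 RNA was therefore at the edge of detection at this depth.

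Pon2 and Pon3 are paraoxonases, enzymes that hydrolyse lactones. Pon2 had 653 reads in BxC and 490 in CxB, and 8 of its 10 annotated introns were crossed in both libraries. Pon3 had only 87 and 34, over catalog exons of 1784 bases. The first 1000 bases past its annotated end held 62 and 52 reads, so per base the flank of Pon3 was at least as deep as its exons. Of its 10 annotated introns, 5 were crossed in BxC and 1 in CxB. Pon1, the third paraoxonase gene of the cluster and no catalog entry, had 20 and 16 reads. Pon2 was thus the only one of the 3 with more than 100 reads in each library.

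Asb4, an adaptor of a ubiquitin ligase, had 491 reads in BxC and 486 in CxB. Its depth was highest in exon 4, at 11.3 and 12.7, and its exon 1 of 20 bases had no read. Dlx5, a homeobox factor of forebrain interneurons, had 2032 and 1676 reads over its 3 catalog exons. The mean depth of these exons was 47.3 to 73.8 reads per base in BxC and 40.3 to 55.9 in CxB. Within exon 3 the depth ran from 0 to 345 in BxC and from 0 to 276 in CxB. Over its annotated exons Dlx5 had 2329 and 1879 reads. Its partner Dlx6, on the opposite strand of the same cluster, had 3029 and 2439 reads and a mean of 9.63 RPKM, beside the 12.4 of Dlx5 over its annotated exons. The catalog counts Dlx5 as maternal and does not list Dlx6 among the entries of the window.

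Among the other entries with more than 10 reads the share of reads in exons was lower than in Peg10. It was higher than in Sgce except for Pon3, whose intervals include the values of Sgce by reads and which by distinct lines had 62.5% in BxC and 51.8% in CxB. Per kilobase the order was another: the ratio of exon to intron depth was 15 in BxC and 13.9 in CxB for Dlx5, 22.7 and 15.2 for Pon3 and 27.5 and 28.3 for Pon2, all below Sgce. The exon share was 88.6% in BxC and 89.3% in CxB for Calcr, 88.5% and 90.5% for Asb4, 88.2% and 87.4% for Dlx5 and 81.2% and 81.6% for Pon2. For Ppp1r9a it was 68.4% and 67.9%, and for Pon3 63.3% (54.7% to 71.3%) and 53.6% (41.2% to 65.7%). Ppp1r9a spans 262 kb and held 6948 intron reads in BxC and 5710 in CxB, the most of the 9 entries. Annotated introns seen in both libraries numbered 14 of 18 in Calcr, 14 of 18 in Sgce, 18 of 23 in Ppp1r9a, 4 of 7 in Asb4 and 3 of 3 in Dlx5. The order of the exons by depth was close in the libraries for most entries, with Spearman's rho over exons of 0.89 for Calcr over 16 exons, 0.88 for Sgce over 11 and 0.57 for Pon3 over 9. These exons share their library and are not independent replicates.

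The comparison of the reciprocal crosses asks here only whether the total level of an entry moved with the direction of the cross. No entry with at least 100 reads in each library was past 1.5-fold (0 of 7). Among all annotated genes with as many reads, 169 of 15427, or 1.10%, were past that fold in either direction, and among all catalog entries 4 of 83, or 4.82%. The 7 entries had a median log2 ratio of CxB over BxC of -0.04, against -0.00108 over all annotated genes, whose 5th and 95th percentiles were -0.29 and 0.28. All 7 lay within these percentiles.

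The paternal entries Sgce and Peg10 lay on opposite sides of 0. Sgce stood at 47.2 RPM in BxC and 40.8 in CxB, a log2 ratio of -0.21 (-0.26 to -0.15). Peg10 stood at 76.1 and 87.9 RPM, a log2 ratio of 0.21 (0.17 to 0.25). The intervals do not overlap, so the 2 genes differed in opposite directions beyond counting error between these 2 libraries. With 1 library a cross it cannot be said whether they would in other embryos. Counting each distinct line once brought the ratios to -0.15 for Sgce and 0.11 for Peg10.

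By reads, each part of Sgce lay below 0, and each part of Peg10 above 0 except 1 whose interval includes 0. In Sgce the log2 ratio was -0.17 (-0.25 to -0.09) in exon 1 and -0.27 (-0.35 to -0.19) over exons 2 to 11. In Peg10 it was 0.50 (0.21 to 0.79) in exon 1, 0.13 (-0.32 to 0.58) in the short part of exon 2 before the first frame, 0.12 (0.03 to 0.22) in the first frame, 0.11 (0.05 to 0.17) in the second and 0.38 (0.31 to 0.45) past it. The ratio of Peg10 thus varied along the transcript by more than counting error, between its second frame and its 3′ end. By distinct lines the intervals of the parts left 0 only over exons 2 to 11 of Sgce, at -0.20 (-0.35 to -0.05), and past the second frame of Peg10, at 0.26 (0.14 to 0.38). Exon 1 of Sgce gave -0.01 (-0.29 to 0.27), but its 2892 and 2184 reads fell on 236 and 200 lines. An exon of 121 bases can hold only a limited number of distinct lines, so lines measure its level less well than reads spread over longer exons. The interval by lines includes 0 and shows no direction, and why the ratios by reads and by lines differ was not tested. The value by lines was 0.31 (-0.17 to 0.78) in exon 1 of Peg10, -0.25 (-0.85 to 0.34) before its first frame, 0.07 (-0.09 to 0.23) in the first frame and 0.03 (-0.08 to 0.13) in the second.

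Genes next to the entries were also measured. Casd1, the next gene beyond Sgce and no catalog entry, had 4441 reads in BxC and 4769 in CxB and a log2 ratio of 0.34 (0.28 to 0.40), outside the percentiles above and larger than that of any of the 7 entries. By distinct lines the ratio of Casd1 was 0.09. Among further neighbours the log2 ratio was -0.08 for Dlx6, -0.03 (-0.11 to 0.05) for Ccdc132, beside Calcr, 0.05 (-0.23 to 0.33) for Pdk4, beside Asb4, and 0.02 (-0.15 to 0.18) for Acn9, beside Dlx5.

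**Figure D3:**
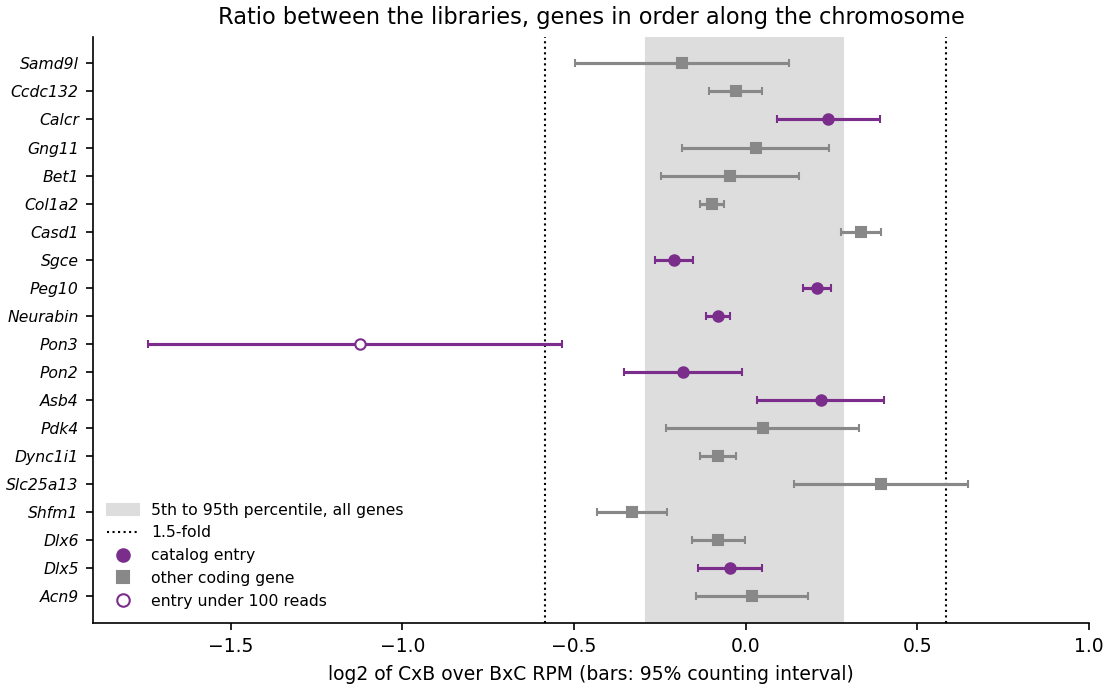
Log2 of CxB over BxC RPM for 8 entries (circles) and for the 12 other protein-coding genes of the window with at least 100 reads in each library (squares), in order along the chromosome; bars are 95% counting intervals, the grey band the 5th to 95th percentile of all annotated genes and the dotted lines 1.5-fold. The 7 filled circles lie between -0.21 and 0.24, and the open circle of Pon3, which had under 100 reads, lies at -1.12.

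Among the maternal entries, Calcr had a log2 ratio of 0.24 (0.09 to 0.39) and Asb4 of 0.22 (0.03 to 0.40). The value was -0.08 (-0.11 to -0.04) for Neurabin, -0.18 (-0.35 to -0.01) for Pon2 and -0.04 (-0.14 to 0.05) for Dlx5. By reads the maternal entries therefore did not share a direction. By distinct lines Calcr came to 0.12, Asb4 to 0.04, Neurabin to -0.02, Pon2 to -0.08 and Dlx5 to -0.02, each nearer to 0.

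Pon3 and Tfpi2 were beyond 1.5-fold but under the minimum of 100 reads, and did not count. Pon3 stood at 0.675 RPM in BxC and 0.310 in CxB, a log2 ratio of -1.12 (-1.74 to -0.54) by reads and of -0.72 by distinct lines. The upper end of its interval lies short of 1.5-fold. Tfpi2, with 8 reads against 1, had a log2 ratio of -2.77 (-8.24 to 0.13), which includes 0.

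The 15 other protein-coding genes that overlap the window, none of them in the catalog, served as a comparison. Of these, 12 had at least 100 reads in each library, 0 were past 1.5-fold, and their median log2 ratio was -0.04, as for the entries. They ran from -0.33 for Shfm1, a proteasome component, to 0.39 for Slc25a13, a mitochondrial carrier, which by distinct lines had -0.18 and 0.01. Shfm1 was the highest of them in level, at a mean of 28.7 RPKM, and Gngt1, a transducin subunit of rod photoreceptors, had 0 reads in both libraries. Of the 15 genes of the domain listed for this work from textbook knowledge, 12 are no entries, 10 of those 12 had at least 100 reads in each library and 0 were past 1.5-fold.

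**Figure D4:**
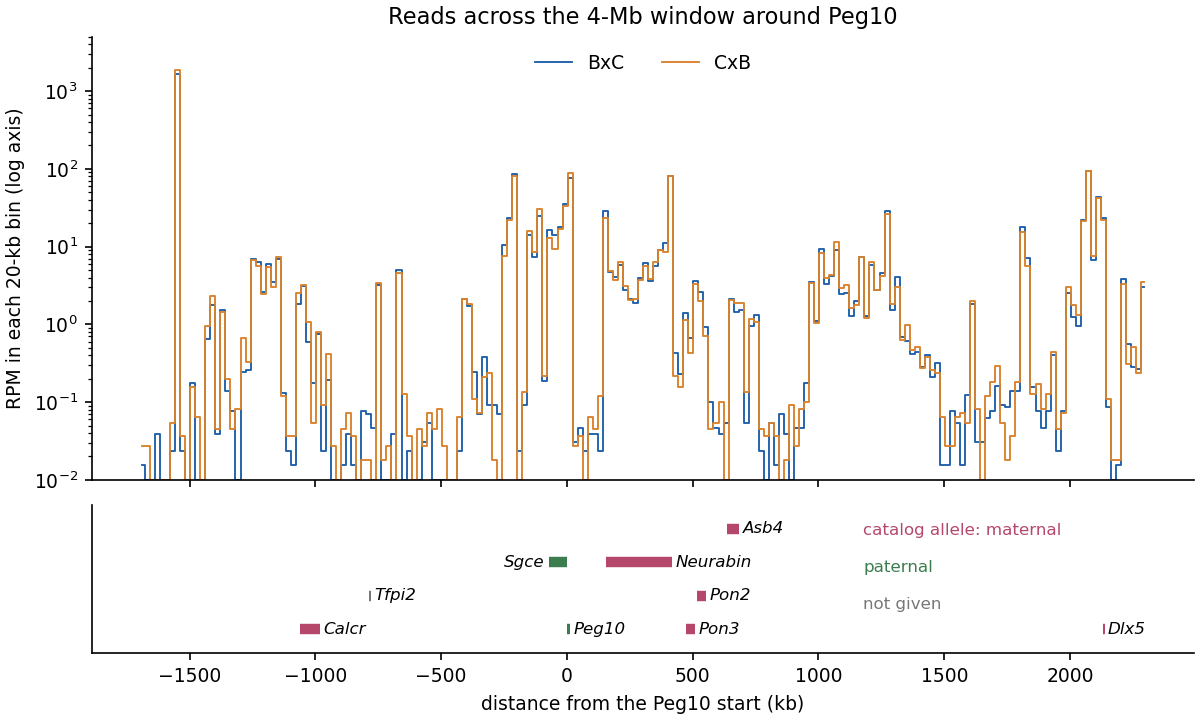
RPM in each 20-kb bin (log axis, empty bins drawn at the lower edge) of the 4-Mb window against the distance from the start of Peg10 in kb, 1 line for each library, above the positions of the 9 entries coloured by the allele the catalog gives. The lines of the libraries run together, and the tallest bin, at -1547.3 kb, lies outside the entries and outside any annotated gene.

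Junction reads, which cross from one exon into the next, were 6.47% of all reads in BxC and 6.20% in CxB. By the methods, the authors aligned to junctions of their gene models with up to 2 exon-skipping events, so other junctions may be missing. In Sgce, 1 read in CxB joined 4628110 to 4644022, past catalog exons 7, 8 and 9, so not every read kept to 2 skipped exons. Shares by distinct lines count each line once, and why they differ from shares by reads was not tested. In the 27-base exon of Sgce printed above, the 5′ junction was joined by 120 reads in BxC and 91 in CxB, and 75 and 77 reads skipped the exon. By this junction the exon was included in 61.5% (54.3% to 68.4%) of reads in BxC and 54.2% (46.3% to 61.9%) in CxB. No line of the alignments held more than 2 blocks, so reads across both ends of an exon shorter than 36 bases could not be counted. Joining shares of such exons can therefore be too low, by an amount that was not measured. The 3′ junction had 26 and 7 joining reads, or 25.7% (17.6% to 35.4%) and 8.33% (3.42% to 16.4%). Both flanks measure the same exon, so the share cannot be fixed more closely than that both forms were present in both libraries. By distinct lines the 5′ junction gave 60.0% (42.1% to 76.1%) in BxC and 46.7% (28.3% to 65.7%) in CxB. The 3′ junction then gave 39.1% (19.7% to 61.5%) and 20% (5.73% to 43.7%), so the intervals of the 2 flanks overlapped by lines and not by reads.

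The 3′ end of Sgce was spliced in several ways. From the exon that ends the shared coding part, 19 reads in BxC and 6 in CxB joined the usual last exon at once. A further 14 and 4 joined an alternative exon at its inner acceptor, and 2 and 0 at its outer acceptor. How the choice between these acceptors changes the protein was not examined. Capitals mark them in the following sequence, the outer one first.
Sgce acceptors of the last alternative exon, chr6:4627188-4627245, minus strand: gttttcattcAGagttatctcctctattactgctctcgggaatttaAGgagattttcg
Another alternative exon of Sgce, of 108 bases at chr6:4680006-4680113, was skipped by 107 reads in BxC and 38 in CxB, while 4 and 0 joined its 5′ junction and 8 and 2 its 3′ junction. By reads the 3′ junction gave 6.96% (3.05% to 13.2%) and 5.0% (0.611% to 16.9%). By distinct lines it gave 29.2% (12.6% to 51.1%) in BxC and 13.3% (1.66% to 40.5%) in CxB, and the 5′ junction 10.5% (1.30% to 33.1%) in BxC and 0% in CxB, so how often the exon was used depended on how reads were counted. An annotated exon of 95 bases in the same intron was joined by 0 reads in either library.

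In Calcr the 111-base exon codes for an insert that sets apart the 2 described forms of the receptor in rodents. Its 5′ junction was joined by 100 reads in BxC and 46 in CxB, while 19 and 29 skipped it, a share of 84.0% (76.2% to 90.1%) and 61.3% (49.4% to 72.4%). Its 3′ junction was joined by 1 read in each library, a share of 5.0% (0.127% to 24.9%) and 3.33% (0.0844% to 17.2%). The body of the exon had a mean depth of 30.4 and 18.3 reads per base, above the exon before it at 10.4 and 7.29. By distinct lines the 5′ junction was joined by 11 lines in BxC and 8 in CxB and skipped by 5 and 4, or 68.8% (41.3% to 89.0%) and 66.7% (34.9% to 90.1%). The 3′ junction, with 1 line in each library, then gave 16.7% (0.421% to 64.1%) and 20% (0.505% to 71.6%), which overlaps the 5′ intervals. The difference between the libraries in the 5′ share was thus present by reads and small by lines. Both forms of Calcr were thus present, and their ratio could not be set.

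**Figure D5:**
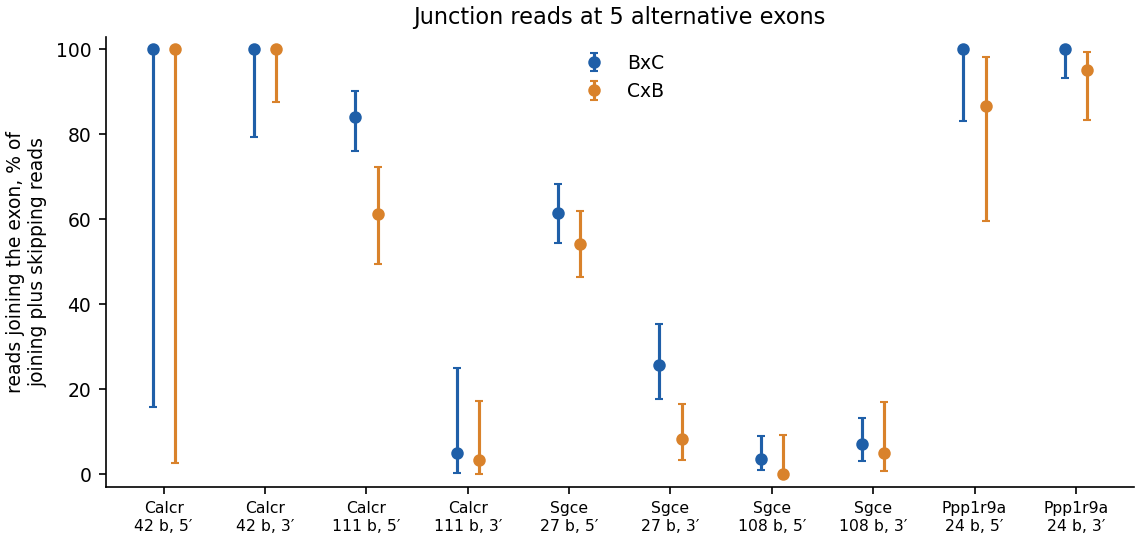
Percent of junction reads that join an alternative exon, of those that join or skip it, at the 5′ and the 3′ junction of 5 exons named by gene and length in bases; 1 point for each library, with exact 95% intervals. The flanks of the 27-base exon of Sgce and the 111-base exon of Calcr differ widely by reads, while the 24-base exon of Ppp1r9a lies at 86.7% or above at both junctions.

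Ppp1r9a joined its 24-base exon in most reads. At the 5′ junction 20 reads in BxC and 13 in CxB joined it and 0 and 2 skipped it. At the 3′ junction 53 and 39 joined it, a share of 100% (93.3% to 100%) and 95.1% (83.5% to 99.4%). By distinct lines the share in CxB was 77.8% at the 5′ and 90.9% at the 3′ junction. The gene also has several first exons. Of the reads that enter its second exon, 6 in BxC and 8 in CxB came from the exon that ends at position 4853031 of chromosome 6 and 8 and 6 from that of the catalog entry. A further 27 and 13, or 65.9% (49.4% to 79.9%) and 48.1% (28.7% to 68.1%), came from an end at position 4853905 that is no exon end in the GENCODE vM1 annotation. Dlx5 had a longer and a shorter form of exon 2: 26 reads in BxC and 20 in CxB used the longer and 1 in each the shorter. The catalog entry holds the shorter form.

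Strand could not be used to tell sense from antisense. The study's methods describe a protocol that marks strand, but the reads of the 9 entries lay on both strands, with 42.9% on the gene's own strand in BxC and 41.9% in CxB. Over all genes that overlap no other the share was 43.4% and 42.9%. Among the entries with at least 100 reads it ran from 35.9% for Dlx5 to 48.1% for Sgce in BxC and from 34.5% for Dlx5 to 47.5% for Sgce in CxB. Reads from a gene and from an antisense partner can therefore not be told apart.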

How the data were processed

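Whole-brain RNA of 1 BxC and 1 CxB embryo was analysed. By their methods, the authors used Novoalign on reads of 36 bases and kept reads with a single place. The reference was gene models, junctions of these models with up to 2 exon-skipping events and the mouse genome (mm9). Each line of the deposited alignments carries a count, taken from its values to be the number of identical reads. It was not normalized. The catalog is the authors' list of known imprinted genes.

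Reads with an aligned block over an exon were summed over the catalog exons and over the genes of GENCODE vM1, also on mm9, and divided by the library totals of 128944754 and 109719746 reads. Levels and ratios by distinct lines were divided by the totals of distinct lines instead. A gene was called past 1.5-fold with at least 100 reads in each library. Ratios carry exact binomial and levels exact Poisson intervals at 95% (scipy 1.17.1, numpy 2.4.6, Python 3.11.15). A count of 0 was read as up to 3 reads. Uniqueness was the share of 36-base windows with 1 exact match in the genome on either strand. The counting and the intervals were tested on simulated data. For the intervals the counts were drawn independently, so that test leaves out reads multiplied by PCR.

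The genes named are all entries of the window, and of its other protein-coding genes those next to an entry or extreme in level or, with at least 100 reads in each library, in ratio. Dlx6os1, Mir489 and Mir653 were named after their values were seen. Entries, gene lists and comparisons were chosen with earlier results of these data known. Alternatives were distinct lines, sense reads, annotated exons, other totals, folds and minimums, and exon bases weighted by uniqueness, the last chosen after seeing the data. For a realignment, the methods state that known SNPs between C57Bl and CAST were masked; whether the deposited alignments are that one was not settled here. The aligner's version is not given in the sources used here. The allele of origin was not analysed here.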

Additional observations from a re-analysis of the deposited data

Results flagged for a closer look

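Outside the annotated genes of the window, 9 bins of 1 kb held at least 500 reads in each library, far above the 3 reads that a count of 0 allows. The tallest, at chr6:3151001-3152000, held 199918 reads in BxC and 192245 in CxB, and its neighbour at chr6:3150001-3151000 held 12242 and 10500. In the tallest bin the 5th and 95th percentiles of the read starts were 3151465 and 3151509 in BxC. By sequence, 41.5% of the 36-base windows of this bin are found once in mm9, against 35.3% in its neighbour, and nearly all reads of both bins began at such a window. These bins made most of the 69.2% of window reads in BxC and 71.9% in CxB that lay outside genes, and no level above uses them.

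The other 7 bins lie within chr6:6759001-6770000, which ends 189 bases from the annotated Dlx6os1, a noncoding RNA of the Dlx5 and Dlx6 cluster. Dlx6os1 lies on the minus strand, so the stretch is past its annotated 3′ end. The stretch of 11 kb had 10463 reads in BxC and 8952 in CxB, with a log2 ratio of 0.01 (-0.03 to 0.05). The bin from 6759001 held 2058 and 1717 reads, that from 6762001 838 and 785, and that from 6763001 1597 and 1332. The bins from 6766001, 6767001, 6768001 and 6769001 held 1653 and 1335, 902 and 877, 733 and 639, and 729 and 515. Within it a junction from 6759131 to 6761985, with neither end annotated in GENCODE vM1, was crossed by 63 reads in BxC and 80 in CxB.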

How the results depend on the processing

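The number of entries over the minimum of 100 reads (7) and the number past 1.5-fold (0) were the same with distinct lines. The former also held for sense reads and annotated exons, the latter for a lower and a higher fold, minimums of 50 and 200 reads and median-ratio scaling. A higher fold could only give 0 again, and the minimums of 50 and 200 reads tested the same number of entries, 7. Median-ratio scaling hardly changed the ratios, with a log2 shift of -0.00108. The median log2 ratio ran from -0.05 with totals that leave out chromosomes X and M to -0.02 with distinct lines. Other values moved. The mean level of Sgce, 27.7 RPKM, became 14.6 with annotated exons. It stayed at 27.7 without bases shared with other genes and weighted by uniqueness, an alternative chosen after seeing the data. With distinct lines it was 17.3, scaled to the totals of lines and so not in RPKM. The sense share of 42.9% in BxC and 41.9% in CxB became 51.1% and 49.7% with distinct lines. The exon share of all entries in BxC, 74.7%, became 72.7% with catalog exons and 63.0% with distinct lines. The causes were not tested. No paired analysis was possible because each cross has 1 library. No library could be left out for the same reason. Entries under 100 reads, Pon3 and Tfpi2, are limited by depth.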
